A study of Mus musculus with 5 samples.

Results

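The genes described here are 10 factors of naive pluripotency, namely Klf2, Klf4, Klf5, Tbx3, Tcl1, Esrrb, Nr5a2, Tfcp2l1, Prdm14 and Zfp42, in mouse embryonic stem (ES) cells that lack Dicer and in wild-type ES cells. They were picked by name from the probe sets that the platform's annotation assigns to a single gene, and all 10 of the 10 names were found among 19938 named genes, each with 1 probe set. RNA came from asynchronous cultures labelled Dicer-deficient (2 arrays) or wild type (3 arrays), and each Affymetrix whole-transcript array gave a log2 signal for every probe set. All cultures were grown without feeder cells in equal parts of a serum and LIF medium and of N2B27+2i, a serum-free medium with inhibitors of MEK and GSK3. The labels give genotype and replicate number, and they name no cell line, clone, sex or Dicer allele, so Dicer loss cannot be told apart from anything else in which the lines differ. The design text calls the cultures biological replicates; the early G1 cultures it also mentions, and a further Dicer-deficient asynchronous culture, were not analysed here.

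Naive pluripotency is the state of the unimplanted mouse epiblast, held in culture by LIF and by blocking differentiation signals. Several partly redundant arms sustain it: LIF acts through JAK and STAT3 on Klf4 and Tfcp2l1, GSK3 inhibition relieves Esrrb of repression by Tcf7l1, MEK inhibition preserves Klf2, and Tbx3 and Tcl1 are tied to PI3K and Akt signalling. Dicer cuts microRNA precursors into mature microRNAs, and ES cells without it are known to survive but to differentiate poorly.

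The labels were first set against the array values. Dicer1 had log2 signals of 7.20 and 6.84 in the 2 Dicer-deficient cultures, against 8.84, 8.82 and 8.85 in the wild-type cultures, a log2 change of -1.82 (standard error, SE, 0.112; limma adjusted p = 0.000129). The labels do not say which exons were deleted, and the probe set checks them only as far as it reads deleted sequence. All 8 of 8 general ES cell markers were brighter than the median probe set (5.40 on the log2 scale), and their mean log2 signal was 11.01 and 10.85 in the Dicer-deficient cultures and 10.90 to 11.12 in the wild-type cultures. Of them Tdgf1, a Nodal co-receptor, fell (log2 change -0.70), whereas Pou5f1, Nanog and Sox2 had changes of 0.17, -0.20 and 0.26 that did not pass the test (adjusted p = 0.404, 0.446 and 0.279 in limma). These sizes rest on single arrays. Without Dicer-deficient culture 1 the log2 change was -0.41 for Nanog and 0.06 for Sox2, and without Dicer-deficient culture 2 it was 0.02 and 0.45. That of Pou5f1 was 0.26 without wild-type culture 1 and 0.08 without wild-type culture 3.

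Of the 10 naive factors, 4 fell in Dicer-deficient cells, 1 rose and 5 did not pass the test at an adjusted p of 0.05. Tcl1, Tbx3, Klf4 and Esrrb were lower, with log2 changes of -1.60, -1.18, -0.95 and -0.72, and Klf2 was higher by 0.78. Over all genes tested, 8.6% were called lower, 8.48% higher and 17.1% in either direction. Brighter genes were called more often: of the 6166 genes with a mean signal at least as high as that of the dimmest factor, 17.7% were called lower, 14.7% higher and 32.4% in either direction. The median log2 change of the 10 factors was -0.35, beside 0.01 over all genes and -0.03 over those 6166 genes. Both Dicer-deficient values lay outside the wild-type range for 8 of the 10, 6 below it and 2 above it. Of all genes, 39.9% were so separated, 19.9% below and 20% above. That share was not taken for the brighter genes alone. For Nr5a2, Tfcp2l1 and Klf5 the gap between groups was only 0.03, 0.04 and 0.10 log2 units. All 10 mean signals were above that of the median probe set. RNA came from whole cultures, so fewer cells expressing a gene and less of its RNA per cell cannot be told apart. These calls rest on few arrays: without Dicer-deficient culture 1 limma called 3 lower and 0 higher (5 and 1 at an unadjusted p under 0.05), and without Dicer-deficient culture 2 it called 0 lower and 1 higher (4 and 1 at an unadjusted p under 0.05). Without wild-type culture 2, only Tcl1 was still called lower, and without wild-type culture 3 there were 5 called lower, with Tfcp2l1 and Nr5a2 in and Klf4 out.

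**Figure D1:**
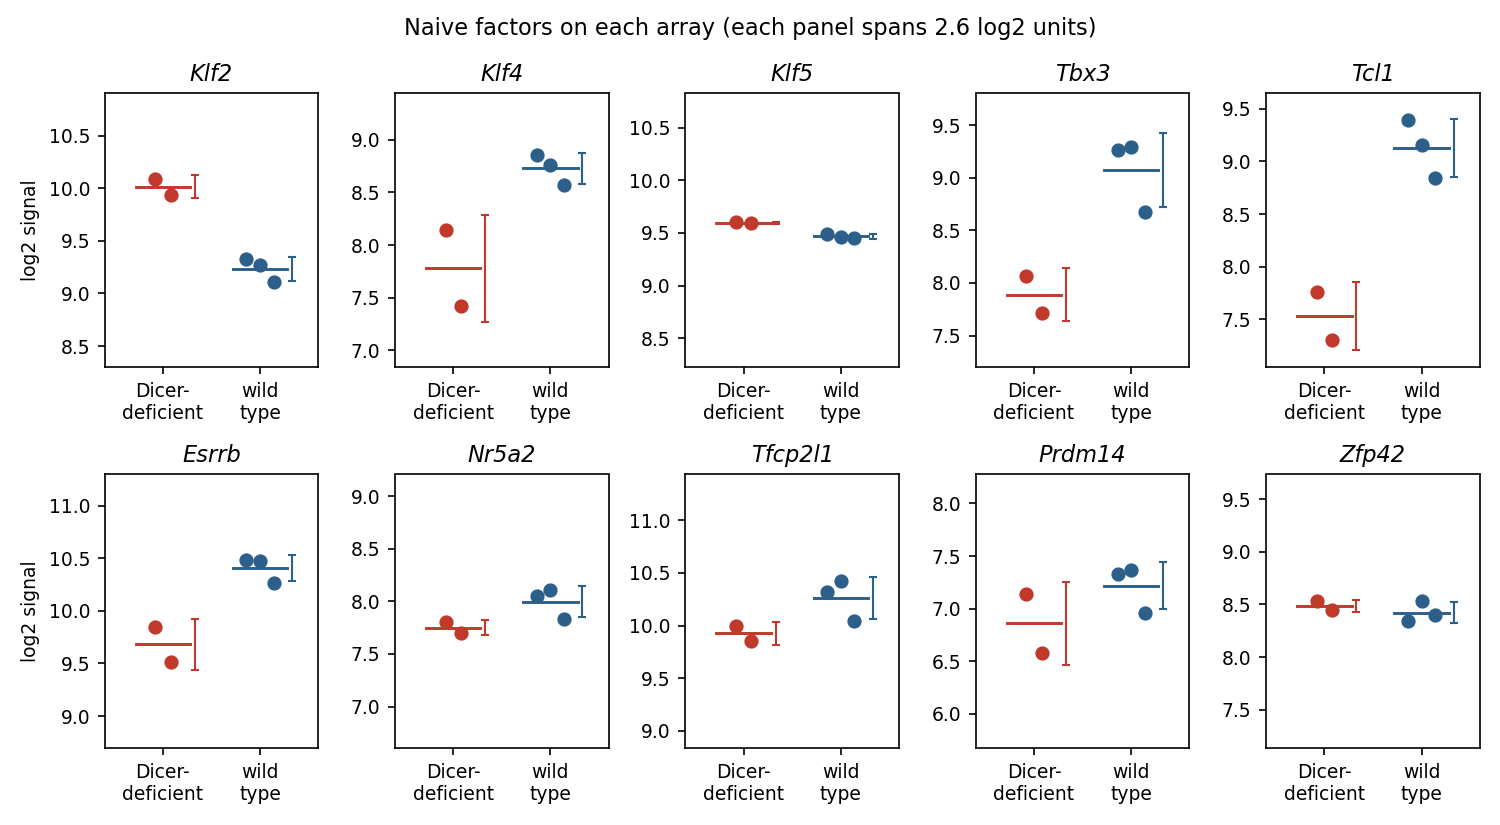
Log2 signal (y axis) of each of the 10 factors on the 2 Dicer-deficient arrays (red, left) and the 3 wild-type arrays (blue, right); horizontal lines are group means and the bars beside them the SD. Each panel has its own range of the same height; the groups are apart for Tcl1 and Tbx3 downwards and for Klf2 upwards, and overlap for Prdm14 and Zfp42.

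**Figure D2:**
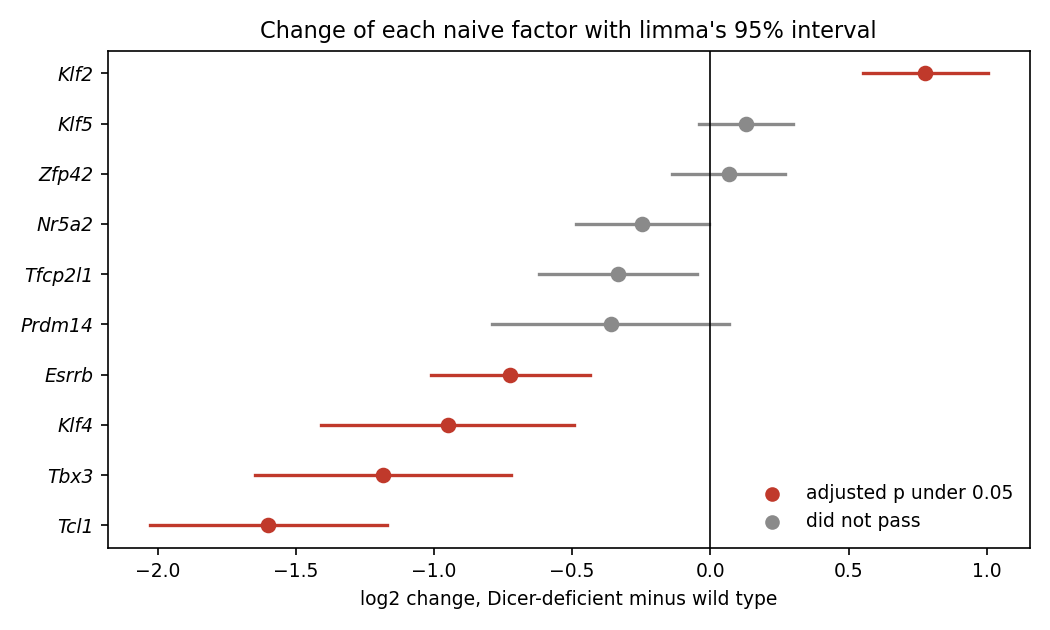
Log2 change of each factor, Dicer-deficient minus wild type (x axis), with limma's 95% interval as a line; red points passed an adjusted p of 0.05 and grey points did not. The changes run from -1.60 for Tcl1 to 0.78 for Klf2.

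The Krüppel-like factors moved apart. Klf2, Klf4 and Klf5 are zinc-finger activators that bind the same GC-rich sites and stand in for one another in mouse ES cells, where losing all of them together ends self-renewal. Klf2 had log2 signals of 10.09 and 9.94 in the Dicer-deficient cultures, against 9.33, 9.27 and 9.11 in the wild-type cultures. Both Dicer-deficient values lay above every wild-type value, by at least 0.61, and Klf2 was 1.72-fold higher (log2 change 0.78, SE 0.0969, adjusted p = 0.00174 in limma). Klf4, the member most directly downstream of STAT3, had 8.14 and 7.42 in the Dicer-deficient cultures, against 8.86, 8.76 and 8.57 in the wild-type cultures. It was lower in both Dicer-deficient cultures, 1.93-fold on average (log2 change -0.95, SE 0.197, adjusted p = 0.0151), but the size differed between them, with a log2 change of -1.31 when only Dicer-deficient culture 2 was used and -0.59 when only culture 1 was. Klf5 had 9.60 and 9.59 in the Dicer-deficient cultures, against 9.49, 9.46 and 9.45 in the wild-type cultures. The Klf5 values did not overlap either, yet the log2 change was 0.13 (95% interval -0.04 to 0.30, adjusted p = 0.333). Taken from each gene's wild-type mean, the deviation of Klf4 minus that of Klf2 was -1.44 log2 units in Dicer-deficient culture 1 and -2.01 in culture 2. In the wild-type cultures, which are centred by construction, it lay between -0.03 and 0.04. For Klf5 minus Klf2 it was -0.72 and -0.58 in Dicer-deficient cultures 1 and 2. These differences restate the changes above culture by culture and are no further test.

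The call for Klf2 was lost without Dicer-deficient culture 1 (adjusted p = 0.0558, log2 change 0.70). That of Klf4 was lost without Dicer-deficient culture 2 (adjusted p = 0.101) and without wild-type culture 1, 2 or 3 (0.0883, 0.0915 and 0.0504).

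The promoters of Klf2 and Klf4 are shown because these genes of one family changed in opposite directions. They run from 250 bases before to 50 after the start site in RefSeq's annotation of GRCm38.p6, and capitals mark matches to GGGNGNGG on either strand, letters that cover the GC box bound by KLF and SP proteins; overlapping matches were counted. The Klf2 window lies at chr8:72318812-72319111 on the plus strand and that of Klf4 at chr4:55532426-55532725 on the minus strand.
Klf2: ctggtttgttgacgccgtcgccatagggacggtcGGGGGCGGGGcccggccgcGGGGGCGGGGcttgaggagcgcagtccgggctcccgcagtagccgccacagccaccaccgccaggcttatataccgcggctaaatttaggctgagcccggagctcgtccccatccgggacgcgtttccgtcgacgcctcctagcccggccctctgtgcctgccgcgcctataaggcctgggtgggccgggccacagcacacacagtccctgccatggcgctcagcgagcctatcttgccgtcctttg
Klf4: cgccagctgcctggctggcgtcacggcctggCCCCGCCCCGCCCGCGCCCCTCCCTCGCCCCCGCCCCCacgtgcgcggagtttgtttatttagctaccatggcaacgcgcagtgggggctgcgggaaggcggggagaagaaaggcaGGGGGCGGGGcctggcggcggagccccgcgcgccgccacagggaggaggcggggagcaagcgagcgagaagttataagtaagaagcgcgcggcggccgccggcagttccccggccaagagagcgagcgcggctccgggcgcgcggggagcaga
The Klf2 window held 4 matches, in a pair of stretches, and the Klf4 window 9. Such a match stood in 49.5% of all 32851 promoter windows, and both windows are richer in G and C (69.3% for Klf2 and 74.3% for Klf4) than the median window (52.7%).

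Among the other Krüppel-like genes, Klf6 and Klf7 rose, with log2 changes of 0.94 (adjusted p = 0.000405) and 0.74 (adjusted p = 0.00782 in limma). Of all 17 family members, 3 rose, 1 fell and 13 did not pass, with a median of 0.08. As a share of all genes 17.1% were called, and of the 6166 bright ones 32.4%. Klf7 was not called without Dicer-deficient culture 1 or 2 (adjusted p = 0.0575 and 0.124), and without each array in turn the family had 1 to 3 called higher and 0 or 1 lower. Klf5 lies on chromosome 14, on which 138 of 699 named genes were called lower and 41 higher. Of all genes, 8.6% were called lower and 8.48% higher. Of its 20 nearest named neighbours, 2 rose (Tdrd3 and Mzt1), 3 fell (Commd6, Uchl3 and Mycbp2) and the median change was 0.07; its direct neighbours Pibf1 and Klf12, itself a Krüppel-like factor, had changes of 0.33 and 0.35 (adjusted p = 0.108 and 0.074), and that of Klf12 was 0.21 without Dicer-deficient culture 2. Calls for Mzt1, Commd6 and Mycbp2 were lost without Dicer-deficient culture 1 or 2, those of Commd6 and Mycbp2 also without wild-type culture 2, and that of Commd6 without wild-type culture 1 (adjusted p up to 0.0988, 0.279 and 0.125).

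Tcl1 and Tbx3 had the largest falls of the 10. Tcl1 encodes a small adaptor that binds Akt kinases and promotes their activity. Its log2 signals were 7.76 and 7.30 in the Dicer-deficient cultures, against 9.39, 9.16 and 8.84 in the wild-type cultures. The highest Dicer-deficient value was 1.08 below the lowest wild-type value, and the level was 3.03-fold lower (log2 change -1.60, SE 0.184, 95% interval -2.03 to -1.17, adjusted p = 0.00124 in limma), the fall ranked 34 among the 19938 genes. Tbx3 encodes a T-box factor that can sustain Nanog without LIF in mouse ES cells. It had 8.07 and 7.71 in the Dicer-deficient cultures, against 9.26, 9.29 and 8.67 in the wild-type cultures. The groups did not overlap, although wild-type culture 3 stood below the other two, and Tbx3 was 2.27-fold lower (log2 change -1.18, SE 0.199, adjusted p = 0.00626, rank 87). Tcl1 lost its call without Dicer-deficient culture 2 (adjusted p = 0.0558). Tbx3 lost it without Dicer-deficient culture 1 (0.0861), Dicer-deficient culture 2 (0.144) or wild-type culture 2 (0.0506).

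Tcl1 lies on chromosome 12 close to Dicer1, with 9 named genes between them. None of those 9 was called by limma, and 0 of them had an unadjusted p under 0.05 in either direction; their log2 changes lay between -0.17 and 0.26. The run holds the related genes Tcl1b1 to Tcl1b5, whose log2 signals were at most 5.63 on any array. On the other side Bdkrb2, a bradykinin receptor gene and the nearest named neighbour, had a change of 0.00 (adjusted p = 0.994) that lay between -0.03 and 0.04 in fits without 1 array. Of the 20 nearest neighbours, Dicer1 itself was the one called, while 17.1% of all genes were called in either direction. Over the whole of chromosome 12, 45 of 652 named genes were called lower and 81 higher, beside 8.6% and 8.48% of all genes. Of the 9 genes in between, 7 had mean signals below or near that of the median probe set, where a fall may not be measurable. The other two, Scarna13 and Glrx5, had log2 changes of 0.10 and -0.10 (adjusted p = 0.563 and 0.467).

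**Figure D3:**
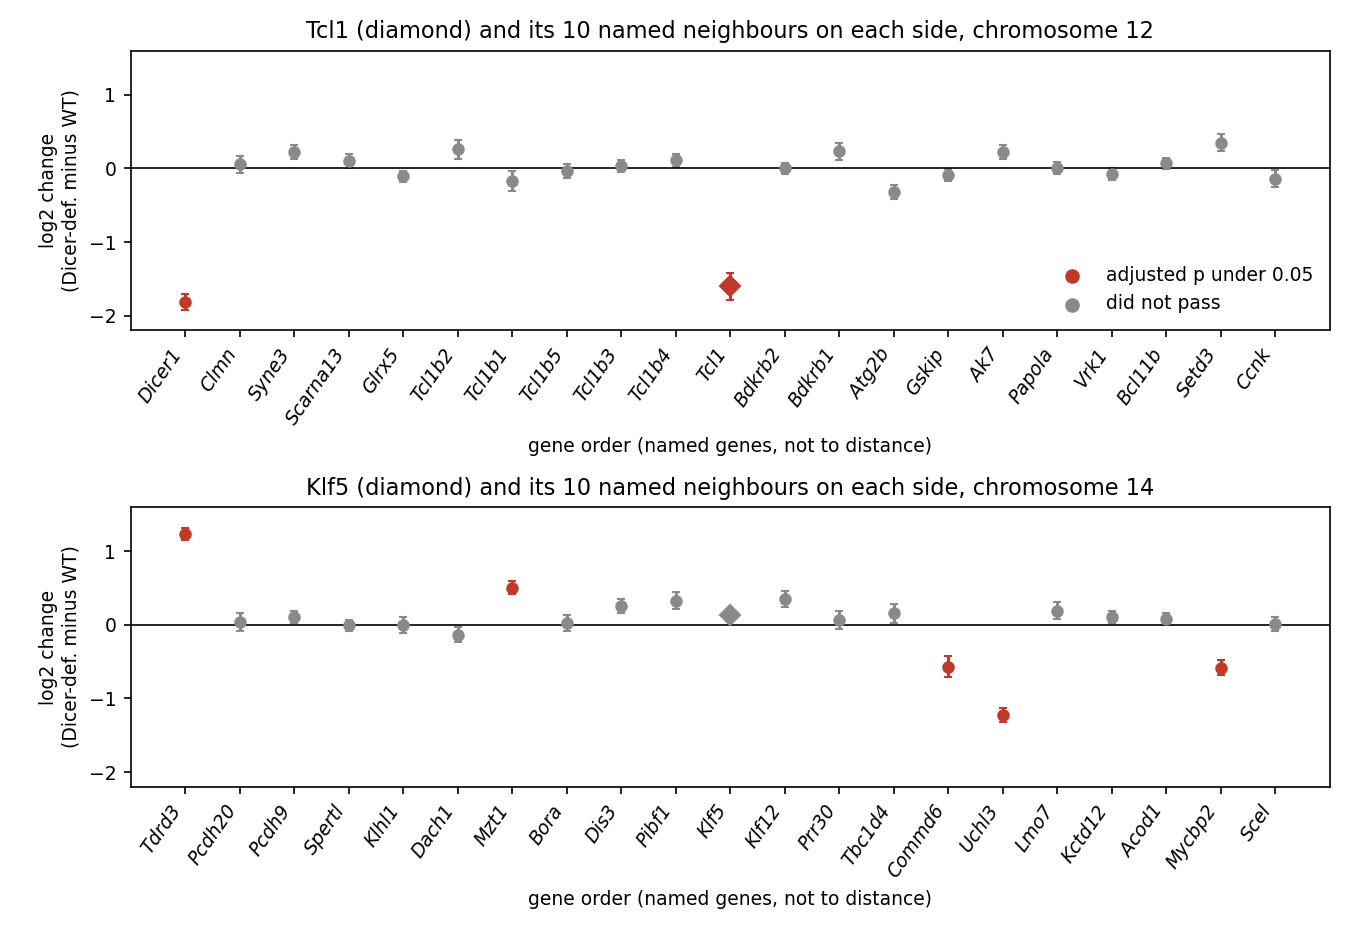
Log2 change, Dicer-deficient minus wild type (y axis, bars are SE), of Tcl1 (top, diamond) and Klf5 (bottom, diamond) and of the 10 nearest named genes on each side in chromosome order (x axis, not to distance); red points passed an adjusted p of 0.05. At the top, Dicer1 (-1.82) and Tcl1 (-1.60) stand apart from genes near 0.

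The Tcl1 promoter is given as that of the factor with the largest fall. It lies at chr12:105222688-105222987 on the minus strand of GRCm38.p6 (RefSeq), with capitals for the same GGGNGNGG letters.
Tcl1: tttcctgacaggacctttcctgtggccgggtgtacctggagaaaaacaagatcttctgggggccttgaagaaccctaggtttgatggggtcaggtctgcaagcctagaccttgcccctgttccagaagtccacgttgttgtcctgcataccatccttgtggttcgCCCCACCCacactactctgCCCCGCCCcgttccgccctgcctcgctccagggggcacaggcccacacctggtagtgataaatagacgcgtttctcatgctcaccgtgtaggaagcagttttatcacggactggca
It held 2 matches. The Akt kinases that Tcl1 binds moved the other way: Akt1 and Akt2 rose, with log2 changes of 0.53 and 0.82 (adjusted p = 0.00544 and 0.000794 in limma), and Akt1 lost its call without Dicer-deficient culture 1 (adjusted p = 0.0663). Among the other T-box genes Tbx20, a cardiac factor, rose by 1.11 on the log2 scale (adjusted p = 0.000322). Its wild-type mean, 4.73, was dimmer than the median probe set and was not shown to be above background, so the size of that rise is uncertain. The remaining 13 of 15 measured T-box genes did not pass, while 17.1% of all genes were called in either direction.

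The nuclear receptors among the factors, Esrrb and Nr5a2, and Tfcp2l1 had lower means in Dicer-deficient cells, and Esrrb passed the test. Esrrb, an orphan nuclear receptor that is a main target of GSK3 inhibition in this network, had log2 signals of 9.85 and 9.51 in the Dicer-deficient cultures, against 10.48, 10.47 and 10.26 in the wild-type cultures. The groups were 0.41 apart, and the level was 1.65-fold lower (log2 change -0.72, SE 0.123, adjusted p = 0.00655 in limma). Nr5a2, a nuclear receptor that can activate Pou5f1, had 7.80 and 7.70 in the Dicer-deficient cultures, against 8.05, 8.11 and 7.83 in the wild-type cultures. Its values lay 0.03 apart between groups, and its log2 change of -0.25 (95% interval -0.49 to -0.01) did not pass after adjustment (adjusted p = 0.169). Tfcp2l1, a CP2-family factor that mediates much of the STAT3 effect on self-renewal, had 10 and 9.85 in the Dicer-deficient cultures, against 10.32, 10.42 and 10.04 in the wild-type cultures. The gap was 0.04, and the change of -0.34 (95% interval -0.62 to -0.05) had an adjusted p of 0.117.

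The wild-type culture nearest to the Dicer-deficient ones was culture 3 for all of these receptors and for Tfcp2l1. Without it, Tfcp2l1 and Nr5a2 passed, with log2 changes of -0.45 and -0.33 (adjusted p = 0.0332 and 0.0486), and both also passed with array weights, which gave that array the least weight (0.0254 and 0.0437). Esrrb lost its call without Dicer-deficient culture 2 (adjusted p = 0.0914, log2 change -0.55) or wild-type culture 2 (0.0535). Esrra, Esrrg, Nr5a1, Nr0b1 and Nr0b2, the related receptors measured, did not pass, with changes from -0.07 to 0.07. Of 6 genes of the CP2 and Grainyhead family, 2 rose, 1 fell and 3 did not pass. The share called was 17.1% over all genes and 32.4% over the 6166 bright ones. Grhl2, an epithelial factor, and Tfcp2 rose by 1.37 and 0.69 on the log2 scale, and Ubp1 had a log2 change of -0.43 (adjusted p = 0.000184, 0.00847 and 0.00782). Besides Tfcp2l1, Grhl1 and Grhl3 did not pass, with changes of 0.13 and -0.32 (adjusted p = 0.427 and 0.109). Tfcp2 and Ubp1 were not called without Dicer-deficient culture 1 or 2 (adjusted p from 0.0718 to 0.136).

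Prdm14 and Zfp42 overlapped between the groups. Prdm14, a PR-domain protein that represses DNA methyltransferase and FGF receptor genes, had log2 signals of 7.14 and 6.58 in the Dicer-deficient cultures, against 7.33, 7.37 and 6.96 in the wild-type cultures. Dicer-deficient culture 1 lay within the wild-type range and culture 2 below it, and the log2 change was -0.36 (95% interval -0.79 to 0.07, adjusted p = 0.269). It was -0.08 without Dicer-deficient culture 2 and -0.64 without culture 1. Zfp42, or Rex1, a zinc-finger gene used as a reporter of the naive state, had 8.53 and 8.45 in the Dicer-deficient cultures, against 8.34, 8.53 and 8.40 in the wild-type cultures. Both Dicer-deficient values lay within the wild-type range, and the change was 0.07, with a 95% interval of -0.14 to 0.27 (adjusted p = 0.729) that leaves out the sizes seen for the 5 called factors.

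Zfp42 is known for an octamer through which POU factors drive its promoter, and its window, chr8:43306960-43307259 on the minus strand of GRCm38.p6 (RefSeq), is printed for that reason; capitals mark GGGNGNGG and the octamer ATGCAAAT on either strand.
Zfp42: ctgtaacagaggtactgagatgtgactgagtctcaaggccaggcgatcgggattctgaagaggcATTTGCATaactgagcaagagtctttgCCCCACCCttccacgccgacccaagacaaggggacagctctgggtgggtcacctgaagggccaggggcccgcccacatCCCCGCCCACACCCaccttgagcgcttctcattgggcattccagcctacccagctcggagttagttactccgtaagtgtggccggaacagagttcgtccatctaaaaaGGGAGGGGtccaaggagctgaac
One octamer match began 186 bases before the start site, where 1.74% of all windows hold any, beside 4 GC-box matches. Of the 10 factors, 7 had a promoter in the table, with 9 windows in all. AAGGTCA, the core recognised by Esrrb and Nr5a2, TTCCNGGAA, a STAT3 site, and GGTGTGA, a T-box site, were found in 4.72%, 1.15% and 3.98% of all windows and in none of the 9.

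Of 7 methylation and FGF receptor genes around Prdm14, Dnmt3b rose, and Dnmt3l and Uhrf1 fell. Their log2 changes were 0.54, -0.85 and -0.43 (adjusted p = 0.0416, 0.0369 and 0.0126 in limma). The share called was 17.1% over all genes and 32.4% over the 6166 bright ones. Dnmt3l differed between the Dicer-deficient cultures (9.35 and 10.12, against 10.75, 10.68 and 10.33 in the wild-type cultures). Each of these calls was lost without 4 or 5 of the 5 arrays in turn (adjusted p up to 0.293 for Dnmt3b, 0.278 for Dnmt3l and 0.117 for Uhrf1). The log2 change of Dnmt3b was 0.31 without Dicer-deficient culture 2, and that of Dnmt3l was -0.47 without Dicer-deficient culture 1. Cbfa2t2, the corepressor that Prdm14 binds, had a log2 change of -0.47 (adjusted p = 0.00954), a call lost without Dicer-deficient culture 1 or 2 (up to 0.109). Other PRDM genes called were Prdm2, Prdm4 and Prdm16, higher by 0.33, 0.44 and 0.30 on the log2 scale, and these calls were lost without any 1 of 4 arrays (adjusted p up to 0.109, 0.138 and 0.14). The value for Prdm2 also rests on the probe set used: with its probe sets averaged it was 0.14 (adjusted p = 0.526). Prdm16 had a wild-type mean of 5.54, near that of the median probe set, so the size of its rise is uncertain.

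The cultures of one genotype differed from each other in a common direction over the factors. Dicer-deficient culture 1 had the higher signal for 10 of 10 factors, a relation seen for 46.7% of all genes and for 48.7% of the 6166 genes as bright as the dimmest factor. The median difference between culture 1 and culture 2 was 0.25 over the factors and 0.00 over all genes, and it ran from 0.01 for Klf5 to 0.72 for Klf4. Among wild-type cultures, culture 3 was the lowest for 9 of 10 factors, against 33.9% of all genes but 63.8% of the 6166 bright ones. The median deviation of the factors from the wild-type mean was -0.23 and -0.53 in the Dicer-deficient cultures, against 0.09, 0.09 and -0.16 in the wild-type cultures. Klf2, which was higher in Dicer-deficient cells, was likewise lower in Dicer-deficient culture 2 than in culture 1 and lowest of the wild-type cultures in culture 3. Of the 8 general ES cell markers, 7 were also higher in Dicer-deficient culture 1 than in culture 2, with a median difference of 0.14. The labels name no batch for these arrays, and a part of handling or RNA quality in these differences was not tested.

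**Figure D4:**
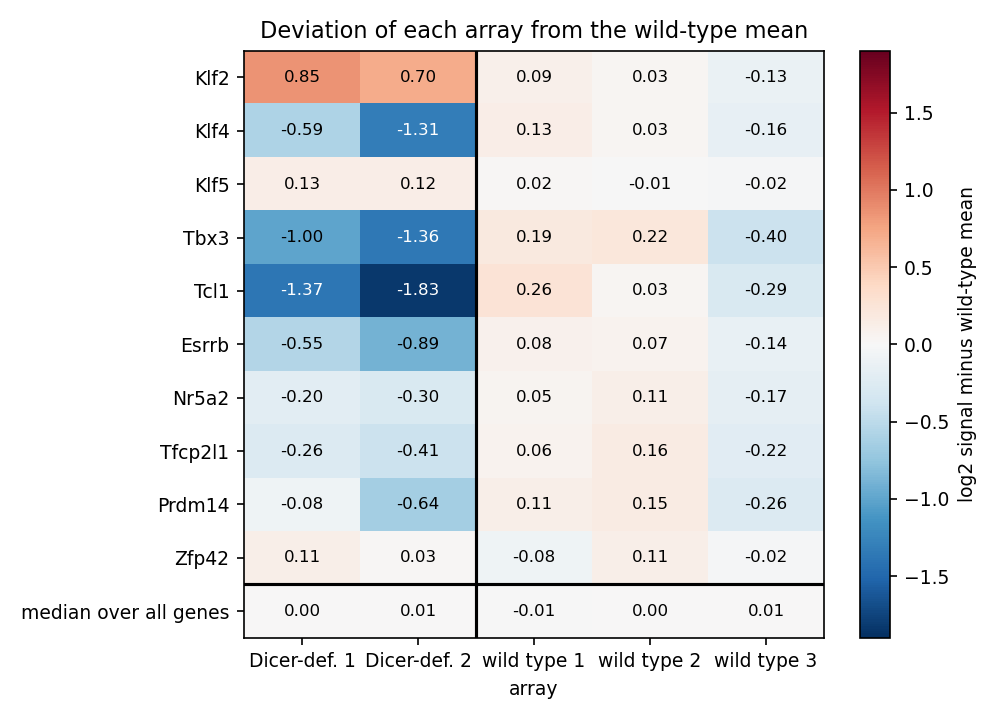
Log2 signal of each factor minus its wild-type mean (colour and printed value) on the 2 Dicer-deficient arrays (left of the line) and the 3 wild-type arrays; the bottom row is the median over all 19938 genes. Dicer-deficient culture 2 is below culture 1 in every row of the factors, and the all-gene medians stay near 0.

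RNA levels of several genes of the LIF arm above these factors changed. Of 12 genes of LIF, JAK and STAT3 signalling, 4 rose, 3 fell and 5 did not pass, with a median of 0.03. Over all genes 17.1% were called, and over the 6166 genes as bright as the dimmest factor 32.4%. Il6st, the gp130 co-receptor, had log2 signals of 9.76 and 9.48 in the Dicer-deficient cultures, against 8.24, 8.50 and 8.26 in the wild-type cultures, and rose by 1.29 on the log2 scale (adjusted p = 0.000491 in limma). The kinases Jak2 and Jak1 rose by 1.37 and 0.73 on the log2 scale, and the receptor Lifr by 0.40. The wild-type mean of Jak2, 5.44, was near that of the median probe set (5.40). It was not shown to be above background, so the size of that rise is uncertain. Stat3 itself had 7.86 and 7.97 in the Dicer-deficient cultures, against 8.59, 8.67 and 8.46 in the wild-type cultures, a log2 change of -0.66 (adjusted p = 0.00283). Pim1, a STAT3 target kinase, and Ptpn11, the phosphatase Shp2, had changes of -0.64 and -0.53. Socs3, a feedback inhibitor and STAT3 target, had 8.38 and 8.41 in the Dicer-deficient cultures, against 8.34, 8.48 and 8.50 in the wild-type cultures, a change of -0.04 (adjusted p = 0.818). The receptor subunits Il6st and Lifr and the kinases Jak1 and Jak2 were thus higher. Stat3, Pim1, Ptpn11 and Klf4 were lower. Socs3, Pim3, Gab1, Pias3 and Myc were not called, and neither was Tfcp2l1, which also acts downstream of STAT3. RNA levels do not measure STAT3 activity. Calls were lost for Jak1 without Dicer-deficient culture 1 or 2 (adjusted p = 0.0558 and 0.0672), for Stat3 without Dicer-deficient culture 1 (0.0689), for Pim1 without Dicer-deficient culture 2 (0.0596), for Lifr without 4 of the 5 arrays (up to 0.195) and for Ptpn11 without 3 of them (up to 0.118).

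Of 22 other genes of the naive network, 5 rose, 2 fell and 15 did not pass, with a median change of 0.00. Beside this and the next count, 17.1% of all genes and 32.4% of the 6166 bright ones were called. Manba, a lysosomal mannosidase, rose by 1.05 on the log2 scale (adjusted p = 0.000605), Nlrp4f by 0.83 and the adhesion molecule Pecam1 by 0.69. Gdf3 and Dppa2 rose by 0.45 and 0.41, and Dnmt3l and Tdgf1 fell. Without each array in turn 2 to 5 of them were called higher and 1 or 2 lower, with Nlrp4f lost without 3 arrays (adjusted p up to 0.235), Dppa2 without 3 (up to 0.184), Gdf3 without either Dicer-deficient culture (up to 0.0857) and Dnmt3l without 4 (up to 0.278). Of 19 genes of exit from the naive state and of formative pluripotency, 4 rose, 0 fell and 15 did not pass in limma. Those that rose were Pim2, Cdh2, Otx2 and Dnmt3b, with log2 changes of 0.71, 0.65, 0.58 and 0.54. At an unadjusted p under 0.05, 4 went upwards and 2 downwards, and the median was 0.07. Those downwards were Dnmt3a and Flcn, with log2 changes of -0.37 and -0.19. The formative markers Fgf5 and Pou3f1 had changes of 0.07 and 0.04 (adjusted p = 0.815 and 0.824). The wild-type mean of Otx2, 5.56, was near that of the median probe set and was not shown to be above background. Otx2, a head and epiblast homeobox factor, was not called without Dicer-deficient culture 1 or 2 (adjusted p = 0.0917 and 0.0827), Cdh2, N-cadherin, not without culture 2 (0.0644), and Dnmt3b not without any 1 of the 5 arrays (up to 0.293).

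**Figure D5:**
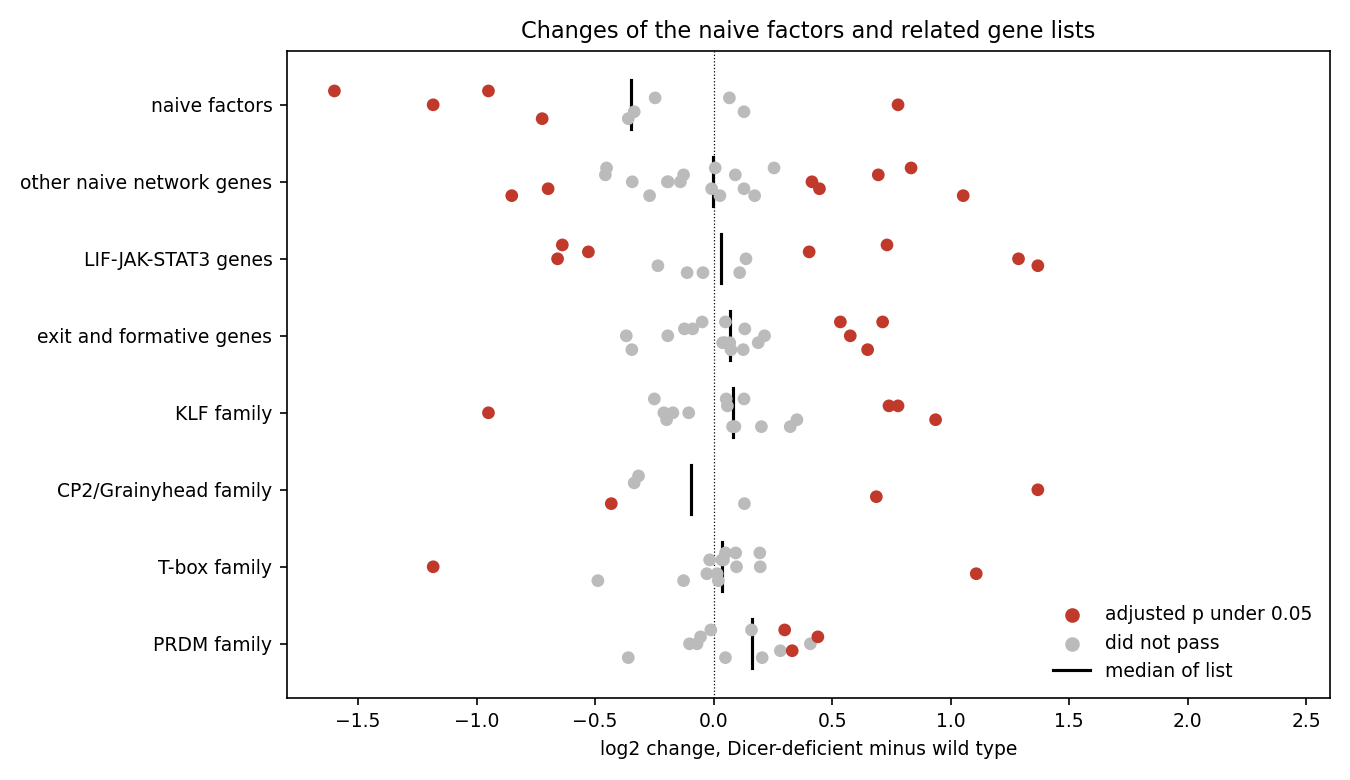
Log2 change, Dicer-deficient minus wild type (x axis), of every measured gene in 8 lists (rows); red points passed an adjusted p of 0.05, grey points did not, and black bars are list medians. The median of the naive factors is -0.35 and those of the other lists lie between -0.09 and 0.16.

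Markers of other cell types were measured beside these changes, and the share of all genes called in either direction was 17.1%. Of 12 trophectoderm markers, 3 rose, namely Krt8, Gata3 and Krt18 with log2 changes of 1.54, 1.23 and 0.49, and 0 fell in limma (4 upwards and 2 downwards at an unadjusted p under 0.05); Krt18 was not called without 4 of the 5 arrays (adjusted p up to 0.258). The summed linear signal of that list was 1713 and 1528 in the Dicer-deficient cultures and 1135 to 1170 in the wild-type cultures. Gata3 had a wild-type mean of 5.78, not far above that of the median probe set (5.40). Primitive endoderm markers had 1 of 12 called, Lama1, with a change of -1.11 that was not called without Dicer-deficient culture 1 or 2 (up to 0.114), and their summed signal was 613 and 628 in the Dicer-deficient cultures and 681.3 to 738.6 in the wild-type cultures. Of 12 fibroblast markers, Vim rose by 0.83 on the log2 scale (adjusted p = 0.0564 without Dicer-deficient culture 2) and 3 were under the lower quartile on all 5 arrays; the summed signal, 4245 and 5159 in Dicer-deficient cultures and 2655 to 3019 in wild-type cultures, is mostly that of Vim, which ES cells also express. Of 14 names listed for the 2-cell-like state, of which Dub1 and Usp17la are names of one gene, 4 genes were measured and all had a mean below the median of all probe sets. Of 10 germ cell markers, Kit fell by 1.51 on the log2 scale and Stra8 had a change of -0.45 at signals near the lower quartile of the arrays. Their summed signal was 960 and 715.6 in the Dicer-deficient cultures and 1123 to 1145 in the wild-type cultures, and Stra8 lost its call without 4 of the 5 arrays (up to 0.268). A summed signal follows the brightest genes of its list. Krt8 was the brightest trophectoderm marker in the Dicer-deficient cultures. Lama1 and Kit were the brightest of their lists in the wild-type cultures. Median log2 changes were 0.05 for trophectoderm, -0.02 for primitive endoderm and -0.125 for germ cell markers. Of these lists, 9, 11 and 8 genes did not pass. The part of cell mixture in the changes of the naive factors was not tested.

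The genes most like each factor were sought among 11188 others with a mean above the median of all probe sets, by the root mean square difference over the 5 arrays of values centred on each gene's mean. Kit, the receptor of stem cell factor, came nearest to Tcl1, at 0.123 log2 units, with 7.64 and 7.03 in the Dicer-deficient cultures, against 8.94, 8.87 and 8.72 in the wild-type cultures. Anxa6, an annexin, followed at 0.151. With its probe sets averaged, Anxa6 had a log2 change of -0.89 in place of -1.61. Dio3 and Mitf were nearest to Tbx3 (0.0614 and 0.0771), Haus4 and Fam111a to Klf4 (0.093 and 0.097), Igf2r and Plekhb2 to Esrrb (0.0196 and 0.0325), and Sh3d19 and Tmem59 to Klf2 (0.0183 and 0.0301). With its probe sets averaged, Mitf had a log2 change of -0.62 in place of -1.08. Nearest to Prdm14 were Ly75 and Jam2, at 0.0583 and 0.0595. The nearest genes were Golph3l and Swt1 for Tfcp2l1 (0.0141 and 0.0172), Clstn1 and Tube1 for Nr5a2 (0.0183 and 0.0194), Rn7sk and Bsdc1 for Klf5 (0.0136 and 0.0141) and Traip and Gm9785 for Zfp42 (0.0147 and 0.0172). Among the genes nearest to the called factors, Kit and Anxa6 kept their own calls without each array in turn, and the other 8 lost theirs without 1 or more arrays (adjusted p up to 0.199).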

How the data were processed

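Total RNA from asynchronous mouse ES cell cultures was hybridised to Affymetrix whole-transcript arrays, and the authors deposited 1 value per probe set and array. The deposited values (2.38 to 14.66, with 2 decimals) were read as log2 signals from their range; neither the log base nor the normalization is stated by the labels or the file, and a fold holds only for base 2. Array medians lay between 5.39 and 5.45, and no further scaling was applied. Raw scans and detection calls were not used, so a low signal cannot be told from background.

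GEO's platform annotation gave 1 gene symbol to 21789 of 35556 probe sets, several to 1621 and none to 12146. The brightest probe set stood for each of the 999 genes with several. All 19938 genes were fitted together with limma (version 3.58.1, R 4.3.3; lmFit and eBayes, 5 arrays, no covariate), and p-values were adjusted by Benjamini-Hochberg over all of them, with 0.05 as the threshold; intervals are 95%. An adjusted p in the text is limma's. Two-sided permutation of 2 against 3 arrays allows 10 splits and no p below 0.1, so none was used. The p-values measure only the spread between these cultures. Tables and plots were made with pandas 2.3.3, matplotlib 3.10.9 and numpy 2.4.6 (Python 3.11.15), and the fit was tested on simulated data.

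The 10 factors and all gene lists were chosen with earlier results of these data known. Genes named are the factors, Dicer1, Pou5f1, Nanog and Sox2, the called genes of each list with the largest changes (at most 4), called or adjacent neighbours among 10 on each side of Tcl1 and Klf5, and the 2 genes most like each factor. Others, such as Dppa2, Gdf3, Pecam1, Lifr, Pim1, Ptpn11, Socs3, Stra8, Scarna13, Glrx5 and family members outside the rule, were named after their values were seen. So were Dnmt3a, Flcn, Fgf5, Pou3f1, Pim3, Gab1, Pias3 and Myc. Alternatives were leaving out each array, a block for the replicate number, array weights, robust moderation or an intensity trend in limma, quantile normalization or median centring, a filter on dim genes, other uses of probe sets and other thresholds.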

Additional observations from a re-analysis of the deposited data

How the results depend on the processing

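Klf2 as the 1 factor called higher, and 4 called lower, were found again with quantile normalization, median centring, the filter on dim genes, the intensity trend, robust moderation and probe sets averaged per gene. Array weights gave 6 lower, and all probe sets and an adjusted p of 0.01 gave 3 each. A test against a 1.2-fold change left 2 lower (Tbx3 and Tcl1). Leaving out 1 array gave 0 to 1 called higher and 0 to 5 lower, with 0 higher without Dicer-deficient culture 1, 0 lower without Dicer-deficient culture 2 and 1 lower without wild-type culture 2; fewer arrays enter these fits. Over all genes, 3404 calls became 1144 against a 1.2-fold change, 1713 at an adjusted p of 0.01 and 973 to 2956 without 1 array. The log2 change of Nanog lay between -0.41 and 0.02 (0.02 without Dicer-deficient culture 2), and that of Bdkrb2 ranged from -0.033 to 0.037 (-0.005 without wild-type culture 1 or 2); the cause was not tested. Over all genes, the deviations of same-numbered cultures from their group means had r = 0.049 and 0.005, and no label pairs the cultures. The 2 Dicer-deficient arrays deviate from their mean by equal and opposite amounts. These r values are therefore not independent and do not settle whether cultures were paired. A fit with the replicate block called 894 genes and left 2 factors lower (Tbx3 and Tcl1), with adjusted p = 0.0833 for Klf4 and 0.0633 for Esrrb. Of 74 genes named by rule, 52 were called and 16 of these stayed called without each array in turn. The number of arrays limits the precision, and signal over background is unknown.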
